A study of Mus musculus with 20 samples.

Results

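The genes described here are the colony-stimulating factor (CSF) ligands and receptors of the mononuclear phagocyte lineage. All 7 listed genes (Csf1, Il34, Csf1r, Csf2ra, Csf2rb, Csf2rb2 and Csf3r) were found among the 14776 genes of the expression table, and all 7 passed the filter on low values in every comparison. The rule names the genes and sets no threshold on measured values.

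Whole epididymal fat pads (eWAT) of 20 C57BL/6J males were sequenced, with 1 RNA library per mouse. The diets began at 6 weeks of age. The 6 mice of the normal control group (NC) ate maintenance chow throughout. The 7 mice of the HFD group ate a diet with 60 kcal% fat for 14 weeks and for 6 further weeks with saline given into the stomach, and the 7 mice of the SZ-A group received SZ-A, an alkaloid preparation from the twigs of mulberry (Ramulus Mori), at 400 mg/kg per day over those 6 weeks on the same diet. Whether the NC mice were also given saline by this route is not given in the sources used here. The sources used here name no genetic modification of these mice, and the tissue was not sorted into cell types.

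CSF1 (macrophage colony-stimulating factor) and interleukin 34 are separate ligands of the same receptor tyrosine kinase, CSF1R, which macrophages need for survival and proliferation. GM-CSF acts through a specific alpha chain, encoded by Csf2ra, and the common beta chain, encoded by Csf2rb, which interleukin 3 and interleukin 5 receptors also use. Mice carry an additional beta chain gene, Csf2rb2, whose product serves the interleukin 3 receptor. Csf3r encodes the receptor of G-CSF, best known from neutrophils and their precursors. In obese fat, macrophages accumulate around dying adipocytes, and CSF1 made by tissue cells is one of the signals that maintain them. The ligands Csf2, Csf3, Il3 and Il5 were not among the genes of the expression table, so their levels are not known here.

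Levels are given as FPKM, fragment numbers scaled to exon length and library size, which can be compared between genes because they are per length. Libraries held 13567665 to 19388618 reads on the deposited genes, recovered from the FPKM steps. In some mice these sums exceeded the library size implied by the same steps (17216018 against 15406891 in HFD replicate 1), so they are approximate. The adipocyte markers were all in the table (8 of 8), and their summed level was 1358 to 10627 FPKM in 19 mice. NC replicate 6 stood apart. Its adipocyte sum was 235.0 FPKM against an NC median of 6302, and it had the fewest recovered reads. Its implied library size, 14573007, was above that of SZ-A replicate 5, 13938406. The 4 epididymal epithelium markers in the table (of 13) summed to 1182 FPKM there, against 40.9 to 718 in the other NC mice. The same sums were 4.08 to 7.73 FPKM in HFD, below every NC mouse, and 6.50 to 318 FPKM in SZ-A, where 3 mice (replicates 2, 3 and 7) lay within the NC range. SZ-A replicate 5 was the smallest SZ-A library and had the largest share of mitochondrial reads, 11.6% against a group median of 3.53%. This share was 3.3% to 8.34% in NC and 1.67% to 2.92% in HFD, without overlap, and its part in the differences between these groups was not tested. Results that rest on these 2 mice are given with and without them.

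6 of the 7 genes, all except Il34, were higher in HFD than in NC, and SZ-A mice had less Csf1, Csf1r and Csf2rb2 than HFD mice. In HFD against NC, 6 of 7 genes were higher at an adjusted p under 0.05, beside 21.0% of all genes tested. All 6 did not overlap between the groups, beside 12.7% of all genes for that direction. In SZ-A against HFD, 3 of 7 genes were lower, beside 13.3% of all genes, and 2 of them, Csf1 and Csf1r, did not overlap, beside 4.01%. In SZ-A against NC, Csf1, Csf1r, Csf2ra and Csf2rb2 remained higher, 4 of 7 beside 4.15% of all genes, and the last 3 of these did not overlap, beside 3.22%. No gene of the list fell in HFD against NC or rose in SZ-A against HFD in the main fits. With array quality weights, a weight per library, all 7 passed in SZ-A against HFD, with Il34 called higher. Of all genes 6403 of 14695 passed there in either direction. Without SZ-A replicate 5, the SZ-A level was below that of HFD for 6 of 7 genes, and with the epithelial markers as a covariate 2 of 7 were higher in HFD than in NC. With that covariate the Csf2rb2 call in SZ-A against HFD and all 4 calls in SZ-A against NC were lost. The latter became 0.57 for Csf1, 1.28 for Csf1r, 1.57 for Csf2ra and 1.27 for Csf2rb2 (limma, adjusted p = 0.12, 0.12, 0.09 and 0.1). The 3 comparisons share their groups and are not independent of each other.

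Differences were tested with limma on log2(FPKM + 1) over all genes, with Benjamini-Hochberg adjustment. Confidence intervals are not adjusted for the number of genes. This scale understates changes of genes expressed at a low level, which here concerns Csf3r, Csf2rb2 and Csf2rb in NC. With the larger threshold of the study's methods, which also asks for a log2 fold change above 1.5, the calls were 4 in HFD against NC (Csf1r, Csf2ra, Csf2rb and Csf2rb2, beside 5.43% of all genes), 0 in SZ-A against HFD (beside 0.558%) and 3 in SZ-A against NC (Csf1r, Csf2ra and Csf2rb2, beside 1.73%).

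**Figure D1:**
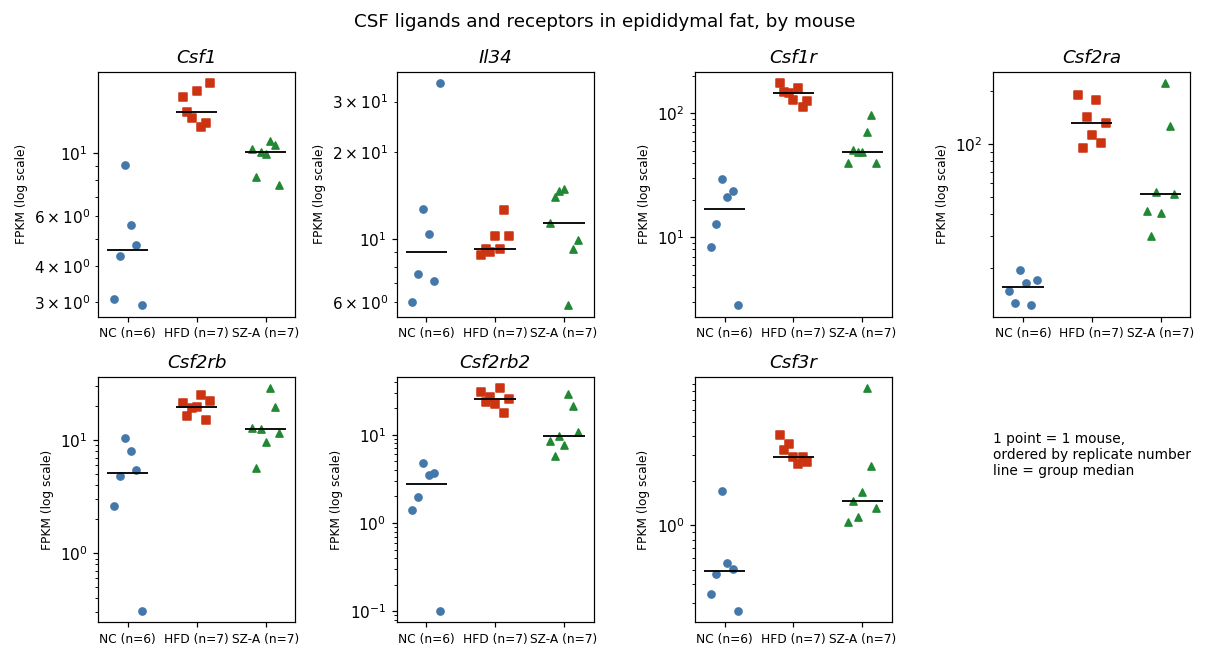
FPKM (log axis) of each gene in each mouse, in 1 panel per gene, for NC (blue circles), HFD (red squares) and SZ-A (green triangles). Lines mark group medians. HFD lies above NC without overlap in every panel but Il34, and the highest SZ-A value of Csf2ra, Csf2rb, Csf2rb2 and Csf3r belongs to 1 mouse, SZ-A replicate 5.

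The ligand Csf1 lies on the minus strand of chromosome 3 (GRCm38, 107741048 to 107760469). Its level was 2.91, 4.55 and 9.10 FPKM (lowest, median and highest mouse) in NC, 12.4, 13.9 and 17.6 FPKM in HFD, and 7.70, 10.1 and 11 FPKM in SZ-A. Every HFD mouse was above every mouse of the other groups, while SZ-A and NC overlapped through NC replicate 3. Csf1 rose by 1.45 ± 0.20 (log2, SE) in HFD against NC (limma, adjusted p = 7e-05). It fell by 0.54 ± 0.11 in SZ-A against HFD (limma, adjusted p = 0.0035), and stayed higher by 0.91 ± 0.20 in SZ-A than in NC (limma, adjusted p = 0.019). Leaving out 1 mouse at a time kept the fall between -0.57 and -0.49.

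Fibroblast and progenitor markers, from cells that can make CSF1, moved with Csf1 between HFD and the other groups, but not from mouse to mouse throughout. All 8 of these markers were in the table, and their summed level was 65.8 to 575 FPKM in NC, 895 to 1374 FPKM in HFD and 234 to 560 FPKM in SZ-A. Of the 8, 6 rose and 1 fell in HFD against NC, and 7 fell in SZ-A against HFD (limma). The part of these cells in the Csf1 values was not tested. In bulk tissue, fewer cells of a type and less RNA per cell cannot be told apart, and this holds for each gene below.

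Il34, on the minus strand of chromosome 8 (110741829 to 110805924), encodes the other CSF1R ligand, known from keratinocytes, neurons and other tissue cells. It was measured at 6.01, 8.96 and 34.8 FPKM in NC, 8.75, 9.23 and 12.6 FPKM in HFD, and 5.86, 11.3 and 14.9 FPKM in SZ-A. The 3 groups overlapped, and the highest value was that of NC replicate 6. Without that mouse, the highest NC value was 12.6 FPKM. The difference was -0.13 (95% confidence interval -0.78 to 0.53) in HFD against NC, with an adjusted p of 0.77 by limma. In SZ-A against HFD it was 0.15 (-0.21 to 0.51) with an adjusted p of 0.55, and in SZ-A against NC 0.02 (-0.71 to 0.75) with an adjusted p of 0.98, both by limma. Without NC replicate 6 the HFD against NC difference was 0.19 (limma, adjusted p = 0.34). With array quality weights Il34 was called higher in SZ-A than in HFD. The annotation places 2 antisense genes, Gm15894 and Gm15895, over Il34. They were not analysed here, and whether the reads were counted by strand is not given in the sources used here.

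The balance of the CSF1R ligands differed between the groups. Il34 was above Csf1 in all 6 NC mice, with a median ratio of Csf1 to Il34 of 0.557 (FPKM). Csf1 was above Il34 in 7 of 7 HFD mice (median ratio 1.51) and in 2 of 7 SZ-A mice (median ratio 0.776). Those 2 were SZ-A replicates 5 and 6, the mice with the highest summed macrophage markers of their group. Which ligand is the higher depends on the exon lengths that divide the reads, 5281 bases for Csf1 and 1959 for Il34. The shift of the ratio between the groups does not.

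Tested as the difference of log2(FPKM + 1) within each mouse, Csf1 minus Il34 averaged -1.06 ± 1.06 (SD, n = 6) in NC, 0.52 ± 0.26 (n = 7) in HFD and -0.17 ± 0.52 (n = 7) in SZ-A. NC and HFD did not overlap, and the gain of 1.58 passed an exact two-sided permutation test (adjusted p = 0.0026 over the 18 relative levels tested, from the smallest p that the design allows, 0.00058). Without NC replicate 6, which lay at -3.20, the gain was 1.15 (exact permutation test, adjusted p = 0.0057). HFD and SZ-A overlapped, and the balance fell by 0.68 in SZ-A against HFD (exact permutation test, adjusted p = 0.033). SZ-A was 0.89 higher than NC (exact permutation test, adjusted p = 0.042). The last 2 calls were fragile. The SZ-A against HFD call was lost in 7 of 14 and the SZ-A against NC call in 10 of 13 leave-one-out tests, with adjusted p up to 0.058 and 0.13. Without NC replicate 6 the SZ-A against NC difference was 0.47 and without SZ-A replicate 5 it was 0.73 (exact permutation test, adjusted p = 0.13 and 0.091).

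**Figure D2:**
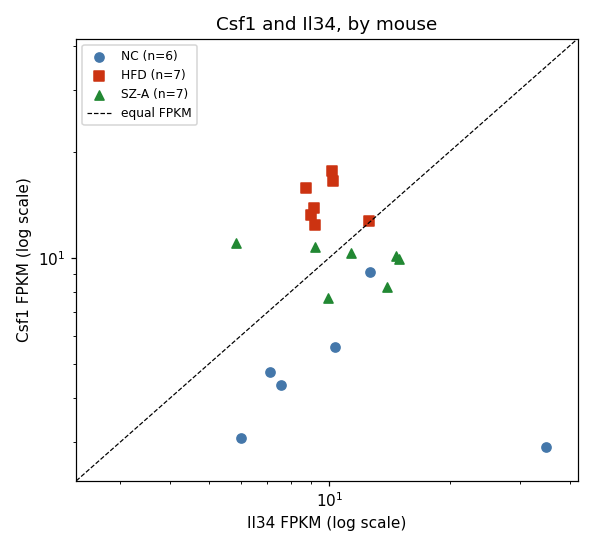
Csf1 (vertical, FPKM, log axis) against Il34 (horizontal, FPKM, log axis), 1 point per mouse. The dashed line marks equal levels. All 7 HFD mice lie above it, all 6 NC mice below it, and 2 of 7 SZ-A mice above it.

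Csf1r, the receptor of both ligands and a general marker of macrophages and monocytes, lies on the plus strand of chromosome 18 (61100598 to 61132149). Its level was 2.82, 16.9 and 29.4 FPKM in NC, 112, 146 and 175 FPKM in HFD, and 39.9, 48.7 and 96.8 FPKM in SZ-A. The 3 groups did not overlap, with SZ-A between NC and HFD. The highest SZ-A value was that of replicate 6, and the lowest NC value that of replicate 6.

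Csf1r rose by 3.32 ± 0.39 in HFD against NC (limma, adjusted p = 2.1e-05). It fell by 1.37 ± 0.19 in SZ-A against HFD (limma, adjusted p = 0.00043), the smallest p of the 7 genes in that comparison. SZ-A stayed 1.95 ± 0.42 higher than NC (limma, adjusted p = 0.016). Without NC replicate 6 the rise was 2.94, and without SZ-A replicate 5 the fall was to a log2 fold change of -1.43. The gene shares 873 bases with Hmgxb3 on the opposite strand, which was measured at 2.10 to 7.75 FPKM over the 20 mice.

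Promoter sequences (RefSeq, GRCm38.p6) were matched for 4 of the 7 genes, all but Il34, Csf1r and Csf2rb. The 250 bases before the start were searched on both strands for GAGGAA, the core letters bound by PU.1, the myeloid transcription factor encoded by Spi1. These letters were present in 23.26% of 32841 promoters of the same length. Csf2ra had 2 matches, adjoining each other at 14 and 8 bases before the start, and Csf2rb2 had 1 match on the opposite strand 167 bases before it. GENCODE M21 annotates the last 11 bases of this Csf2ra window as exon of the gene, so the match nearest the start lies in that exon and the other lies in it in part. Csf3r had 1 match, 86 bases before the RefSeq start and inside an exon annotated by GENCODE M21. Csf1 had none, which says only that the letters are absent from that window. The windows of Csf2ra, Csf2rb2 and Csf3r are shown because the 3 receptor genes rose together on HFD, with the matched letters in capitals and each read 5' to 3' on the strand of its gene. For Csf3r only the first 171 of the 250 bases are shown.
Csf2ra, chr19:61228419-61228668, minus strand: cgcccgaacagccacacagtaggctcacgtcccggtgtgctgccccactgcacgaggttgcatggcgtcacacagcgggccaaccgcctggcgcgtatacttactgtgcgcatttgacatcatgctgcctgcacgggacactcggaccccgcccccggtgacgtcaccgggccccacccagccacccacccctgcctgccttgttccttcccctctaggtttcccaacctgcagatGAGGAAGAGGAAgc
Csf2rb2, chr15:78305722-78305971, minus strand: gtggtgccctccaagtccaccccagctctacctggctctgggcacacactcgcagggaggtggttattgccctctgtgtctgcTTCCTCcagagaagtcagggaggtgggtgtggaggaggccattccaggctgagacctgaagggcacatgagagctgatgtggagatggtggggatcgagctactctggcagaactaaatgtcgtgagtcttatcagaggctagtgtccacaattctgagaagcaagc
Csf3r, chr4:126024409-126024579, plus strand: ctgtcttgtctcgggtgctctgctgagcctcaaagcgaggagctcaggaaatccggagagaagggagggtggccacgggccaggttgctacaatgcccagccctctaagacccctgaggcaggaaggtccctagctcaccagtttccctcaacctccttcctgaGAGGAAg
A match is a description of the letters and not a measured site.

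The GM-CSF receptor alpha chain, Csf2ra, lies on the minus strand of chromosome 19 (61223957 to 61228429). Its level was 12.2, 15.5 and 19.3 FPKM in NC, 95.4, 131 and 190 FPKM in HFD, and 30.05, 52.4 and 222 FPKM in SZ-A. HFD and SZ-A both lay above NC without overlap. Within SZ-A, replicates 5 (222 FPKM) and 6 (127 FPKM) reached the HFD range, while the other 5 mice stayed between 30.05 and 53.4 FPKM, below every HFD mouse.

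Csf2ra rose by 3.04 ± 0.18 in HFD against NC (limma, adjusted p = 6e-08), the smallest p of the 7 genes there. In SZ-A against HFD the difference was -1.04 ± 0.37 (95% confidence interval -1.83 to -0.25), which missed the threshold (limma, adjusted p = 0.055). It passed without SZ-A replicate 5, at -1.34 (adjusted p = 0.0034), and without SZ-A replicate 6, at -1.21 (adjusted p = 0.029). SZ-A stayed 2.0 ± 0.39 higher than NC (limma, adjusted p = 0.01). In NC replicate 6 Csf2ra was at 17.0 FPKM, within the range of the other NC mice, although Csf1r, Csf2rb, Csf2rb2 and Csf3r were lowest there.

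The beta chain genes Csf2rb (plus strand, 78325752 to 78353847) and Csf2rb2 (minus strand, 78282507 to 78305721) are neighbours on chromosome 15 and near copies of each other. Their coding sequences are 2691 and 2637 bases long in GENCODE M21, and 2506 of 2631 aligned bases (95.25%) were identical. The first 150 coding bases are shown because they let a reader see how alike the genes are, with the 6 mismatched bases in capitals.
Csf2rb: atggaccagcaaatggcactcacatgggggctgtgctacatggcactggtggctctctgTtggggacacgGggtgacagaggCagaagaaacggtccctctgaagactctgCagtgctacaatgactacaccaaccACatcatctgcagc
Csf2rb2: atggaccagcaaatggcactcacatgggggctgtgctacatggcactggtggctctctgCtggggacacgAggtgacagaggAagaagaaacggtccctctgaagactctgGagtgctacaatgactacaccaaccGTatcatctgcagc
Of all 150-base windows, the length of 1 sequencing read, 6.49% of Csf2rb and 6.63% of Csf2rb2 had an identical copy in the other coding sequence. For 50-base windows the shares were 26.0% and 26.55%. A single read from such a window cannot be assigned to 1 gene by its letters alone. The reads were paired, and the exons counted (7277 bases for Csf2rb and 4740 for Csf2rb2) extend beyond the coding sequences. These shares thus do not give the extent of misassignment, which was not tested, and the separate levels of the beta chains are uncertain.

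Csf2rb, the chain common to the GM-CSF, interleukin 3 and interleukin 5 receptors, was measured at 0.311, 5.15 and 10.4 FPKM in NC, 15.2, 19.6 and 25.1 FPKM in HFD, and 5.63, 12.6 and 28.9 FPKM in SZ-A. HFD lay above NC without overlap, and SZ-A spanned both groups. It rose by 2.0 ± 0.39 in HFD against NC (limma, adjusted p = 0.0013), or by 1.61 without NC replicate 6, which held 33 reads of this gene. The difference in SZ-A against HFD was -0.56 ± 0.25 (-1.10 to -0.02; limma, adjusted p = 0.12). Without SZ-A replicate 5 it was -0.74 (adjusted p = 0.016). In SZ-A against NC it was 1.44 ± 0.46 (limma, adjusted p = 0.098).

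Csf2rb2, the interleukin 3 beta chain, was measured at 0.101, 2.74 and 4.82 FPKM in NC, 17.8, 25.1 and 33.6 FPKM in HFD, and 5.80, 9.62 and 29.1 FPKM in SZ-A. HFD and SZ-A lay above NC without overlap, and SZ-A replicates 5 and 6 reached the HFD range. The lowest NC value, again in replicate 6, rests on 7 reads. Csf2rb2 rose by 3.05 ± 0.32 in HFD against NC (limma, adjusted p = 7.7e-06) and fell by 1.07 ± 0.28 in SZ-A against HFD (limma, adjusted p = 0.015). It stayed 1.99 ± 0.42 higher in SZ-A than in NC (limma, adjusted p = 0.014), a call that missed the threshold with a pseudocount of 0.01 in place of 1 (2.79, adjusted p = 0.054). Without NC replicate 6 the rise was 2.75, and without SZ-A replicate 5 the fall was to a log2 fold change of -1.28.

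On the FPKM scale the order of the beta chains differed between the groups. Csf2rb was the higher in 6 of 6 NC mice, at a median ratio of Csf2rb2 to Csf2rb of 0.447 (range 0.326 to 0.681). Csf2rb2 was the higher in 7 of 7 HFD mice, at a median ratio of 1.34 (1.13 to 1.42). In SZ-A it was the higher in 3 of 7 mice, at a median ratio of 0.919 (0.673 to 1.06). The range of HFD did not overlap with NC or SZ-A, and those of NC and SZ-A overlapped slightly. These ratios are a description without a test. Which chain is the higher depends on the exon lengths that divide the reads, 7277 bases for Csf2rb and 4740 for Csf2rb2. In recovered reads Csf2rb was the higher in every mouse, as in HFD replicate 1 with 2374 against 2202. The shift of the ratio between the groups does not depend on these lengths.

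**Figure D3:**
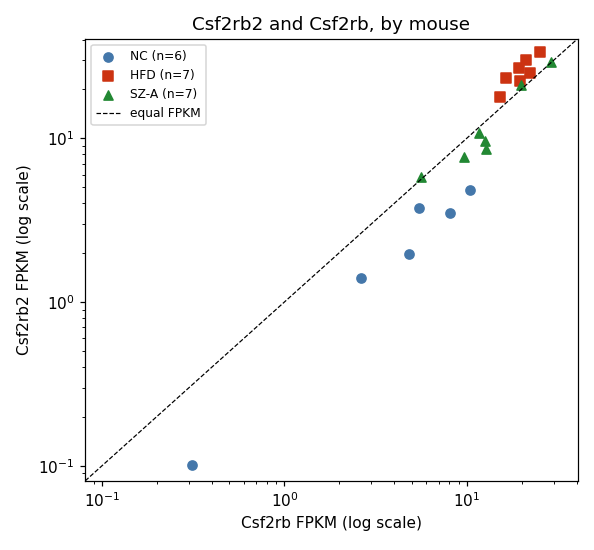
Csf2rb2 (vertical, FPKM, log axis) against Csf2rb (horizontal, FPKM, log axis), 1 point per mouse. All 7 HFD mice lie above the dashed line of equal levels, all 6 NC mice below it, and 3 of 7 SZ-A mice above it.

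The G-CSF receptor, Csf3r, lies on the plus strand of chromosome 4 (126024550 to 126044440) and had the lowest mean level of the list in each group. It was measured at 0.266, 0.492 and 1.71 FPKM in NC, 2.61, 2.90 and 4.06 FPKM in HFD, and 1.06, 1.46 and 8.41 FPKM in SZ-A. The NC values rest on 14 to 99 reads per mouse. HFD lay above NC without overlap, and in SZ-A replicate 5 exceeded every HFD mouse while the other 6 mice lay below the lowest HFD mouse.

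Csf3r rose by 1.37 ± 0.16 in HFD against NC (limma, adjusted p = 1.9e-05). The difference in SZ-A against HFD was -0.45 ± 0.27 (-1.03 to 0.13; limma, adjusted p = 0.24), and without SZ-A replicate 5 it was -0.72 (adjusted p = 0.0012). In SZ-A against NC it was 0.92 ± 0.32 (limma, adjusted p = 0.13). With a pseudocount of 0.01 these log2 fold changes were 2.53, -0.72 and 1.81, on the same side of the threshold (limma, adjusted p = 7.8e-05, 0.16 and 0.065). Of 10 neutrophil markers only S100a8 and Mmp9 were in the table, so the cells best known for Csf3r could be followed only in part. The sum of these 2 was 0.351 to 12.4 FPKM in NC, 4.71 to 14.6 FPKM in HFD and 4.03 to 15.6 FPKM in SZ-A, where replicate 5 was again the highest. The sum hides opposite changes, since S100a8 rose by 1.18 and Mmp9 fell by 1.40 in HFD against NC (limma, adjusted p = 0.046 and 0.011), and Mmp9 rose by 0.73 in SZ-A against HFD (limma, adjusted p = 0.0035). Their part in the Csf3r values was not tested.

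**Figure D4:**
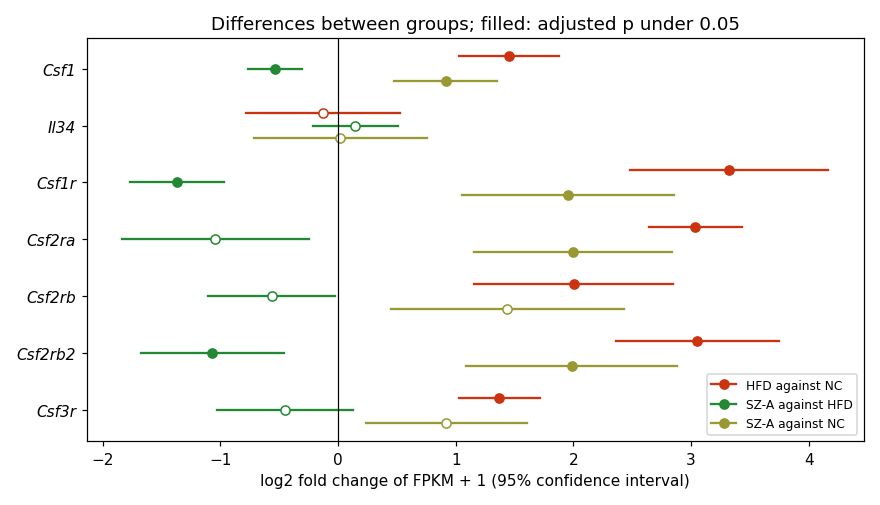
Log2 fold change of FPKM + 1 (horizontal) with its 95% confidence interval for each gene (vertical) in HFD against NC (red), SZ-A against HFD (green) and SZ-A against NC (olive). Filled circles passed an adjusted p under 0.05, namely 6, 3 and 4 of 7 genes. Il34 lies near 0 in each comparison, and Csf1r, Csf2ra and Csf2rb2 have the largest differences.

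By mean FPKM, the HFD order ran from Csf1r (142 ± 21.8, SD, n = 7) and Csf2ra (136 ± 36.6) over Csf2rb2 (25.6 ± 5.24), Csf2rb (19.9 ± 3.37), Csf1 (14.6 ± 2.03) and Il34 (9.87 ± 1.31) to Csf3r (3.13 ± 0.522). Only the steps from Csf2ra to Csf2rb2 and from Il34 to Csf3r separated neighbours without overlap of the mice. In NC, where the mice of all neighbours in the order overlapped, the ligand Il34 (13.1 ± 10.9, n = 6) ranked after Csf1r (16.3 ± 10.1) and Csf2ra (15.4 ± 2.73), ahead of Csf2rb (5.30 ± 3.65), Csf1 (4.96 ± 2.27), Csf2rb2 (2.59 ± 1.74) and Csf3r (0.644 ± 0.533). In SZ-A, Csf2ra (81.1 ± 70.0, n = 7) and Csf1r (56.5 ± 20.5) led, followed by Csf2rb (14.4 ± 7.66), Csf2rb2 (13.2 ± 8.57), Il34 (11.4 ± 3.34), Csf1 (9.72 ± 1.25) and Csf3r (2.51 ± 2.65). There the step from Csf1r to Csf2rb was the only one without overlap, and Csf1 and Csf3r overlapped through replicate 5. The alpha chain and Csf1r thus stood well above the beta chains on the per-length scale in HFD and SZ-A. This order depends on the exon lengths that divide the reads. For Csf1r and Csf2ra most recovered reads did not come out whole, so the lengths behind their FPKM are uncertain here.

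Macrophage markers moved with the receptors. The 16 markers, all in the table and none of them in the CSF list, summed to 92.5 to 880 FPKM in NC, 4059 to 10965 FPKM in HFD and 1619 to 5440 FPKM in SZ-A. In HFD against NC 14 of 16 rose, in SZ-A against HFD 12 of 16 fell, and in SZ-A against NC 11 of 16 were higher (limma). Their median log2 fold changes were 3.18, -1.40 and 1.67, beside -0.04, 0.03 and -0.0012 over all genes tested. SZ-A replicate 5 had the highest sum of its group (5440 FPKM), followed by replicate 6 (4277 FPKM), the same 2 mice that were highest for the receptors. NC replicate 6 had the lowest sum (92.5 FPKM) and replicate 3 the highest (880 FPKM), which was also highest for all 5 receptors in NC.

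Each receptor was therefore also expressed within each mouse as its log2(FPKM + 1) minus the mean of the 16 macrophage markers, and compared by an exact two-sided permutation test. Relative to these markers, Csf1r, Csf2ra and Csf2rb2 passed in none of the 3 comparisons. The differences in SZ-A against HFD were -0.13 for Csf1r (adjusted p = 0.33), 0.19 for Csf2ra (0.52) and 0.17 for Csf2rb2 (0.36). In HFD against NC they were 0.34 for Csf1r (exact permutation test, adjusted p = 0.09), 0.05 for Csf2ra (0.93) and 0.07 for Csf2rb2 (0.52). Without NC replicate 5, Csf1r passed in HFD against NC, at 0.43 (adjusted p = 0.011). A p above the threshold does not show that these levels were equal.

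Csf2rb and Csf3r did shift relative to the macrophage markers. Csf2rb averaged -1.01 ± 0.32 (SD, n = 6) in NC, -1.99 ± 0.23 (n = 7) in HFD and -1.32 ± 0.36 (n = 7) in SZ-A. The difference was -0.98 in HFD against NC (exact permutation test, adjusted p = 0.0026), and the SZ-A mean exceeded that of HFD by 0.67 (adjusted p = 0.01). Both Csf2rb calls were lost when the median of the markers replaced their mean (exact permutation test, adjusted p = 0.12 for each).

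On this relative scale Csf3r averaged -2.71 ± 0.59 (SD, n = 6) in NC. Its mean was -4.33 ± 0.22 (n = 7) in HFD and -3.54 ± 0.43 (n = 7) in SZ-A. HFD did not overlap with NC or SZ-A. The differences were -1.62 in HFD against NC and 0.79 in SZ-A against HFD (exact permutation test, adjusted p = 0.0026 for each). Without SZ-A replicate 5 the latter was 0.64 (exact permutation test, adjusted p = 0.0026). For so low a gene the size depended on the pseudocount, and with 0.01 in place of 1 the HFD against NC difference was -0.85. SZ-A against NC gave -0.83 (exact permutation test, adjusted p = 0.026), a call that was lost without NC replicate 6 (-0.60, adjusted p = 0.052) and in 6 of 13 leave-one-out tests in all. It was also lost, at a much smaller size, with a pseudocount of 0.01 (-0.26, adjusted p = 0.65) and with the median of the markers (-0.26, adjusted p = 0.58).

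With 10 lipid-associated macrophage markers in place of the general list, Csf1r, Csf2ra and Csf2rb2 became lower relative to the markers in HFD against NC, at -0.80, -1.08 and -1.07 (exact permutation test, adjusted p = 0.007, 0.0015 and 0.0015). The 10 markers include Cd36 and Lpl, which adipocytes also express and which were at means of 992 and 548 FPKM in NC, where Trem2 and Gpnmb were at 1.26 and 7.36 FPKM. With the median of the general markers in place of their mean, Csf1r and Csf2rb2 were instead higher relative to the markers in HFD against NC, at 1.02 and 0.75 (exact permutation test, adjusted p = 0.0035 and 0.0052). The relative level of these receptors in HFD against NC thus depended on how the markers were chosen and summarised.

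**Figure D5:**
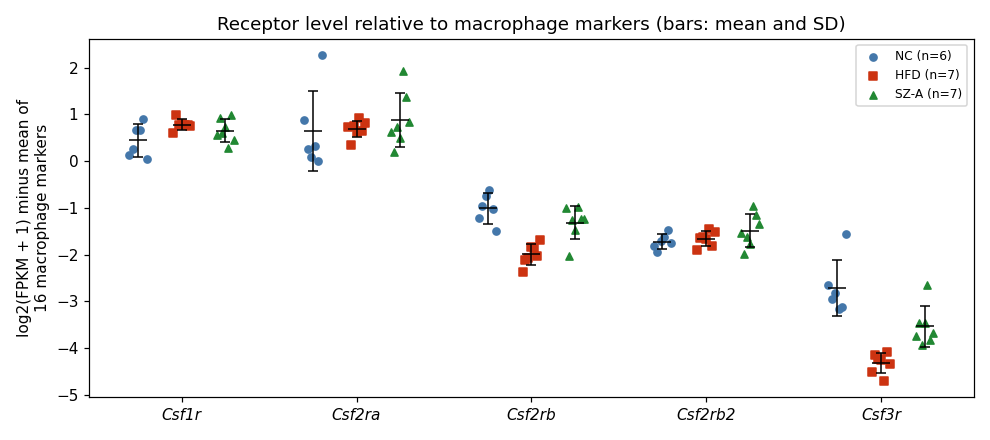
Log2(FPKM + 1) of each receptor minus the mean of 16 macrophage markers (vertical), 1 point per mouse, with the mean and SD of NC (blue), HFD (red) and SZ-A (green). Csf2rb and Csf3r lie lower in HFD than in NC without overlap, at means of -1.99 and -4.33, and the groups overlap for Csf1r, Csf2ra and Csf2rb2.

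All 4 measured epithelial markers of the epididymis were higher in NC than in HFD (limma), 3 of them without overlap (Krt18, Spint2 and Adgrg2) and Cdh1 with overlap. With their mean level as a covariate, only Csf2ra and Csf2rb2 kept an adjusted p under 0.05 in HFD against NC. The log2 fold changes of Csf1, Csf1r and Csf3r dropped to 0.37, 0.85 and 0.55 (limma, adjusted p = 0.27, 0.063 and 0.082), and that of Csf2rb turned to -0.45 (adjusted p = 0.36). Because the summed level of these markers does not overlap between NC and HFD, the tissue that they reflect and the diet cannot be told apart in this comparison. In SZ-A against HFD, where 2 of 4 markers were higher in SZ-A, the covariate left Csf1 and Csf1r past the threshold and moved Csf2rb2 to -0.67 (limma, adjusted p = 0.11). In SZ-A against NC it ended all 4 calls (limma, adjusted p = 0.12 for Csf1 and Csf1r, 0.09 for Csf2ra and 0.1 for Csf2rb2), with log2 fold changes of 0.57, 1.28, 1.57 and 1.27. Krt18 and Cdh1 are also made by mesothelium, so the markers are not specific to the epididymis. Of 2 mesothelium markers tested in HFD against NC, Krt19 differed by -3.55 and Lrrn4 by 0.29 (limma, adjusted p = 0.00061 and 0.62).

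Mice of a group that were high in 1 receptor were often high in another. As a description over 20 mice, after subtracting group means, Pearson's r of log2(FPKM + 1) was 0.948 for Csf2rb with Csf2rb2, 0.866 for Csf1r with Csf2rb2 and 0.86 for Csf1r with Csf2rb. Leaving out NC replicate 6, a choice made after seeing the data, gave 0.929, 0.792 and 0.71. For Csf1r with Csf2ra r was 0.32, and 0.549 without NC replicate 6. For Csf1 with Csf1r it was 0.731, and 0.663 without that mouse. The values of Il34 with Csf1r (r = -0.579) and with Csf2rb2 (r = -0.683) depended on NC replicate 6. Without it they were 0.014 and -0.439, and without SZ-A replicate 5 as well they were 0.206 and -0.096. Values of 1 mouse share a library and its cell composition, and the similar beta chain sequences can share reads.

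The genes closest to each member by the same measure, among the 12449 genes whose mean reached 1 FPKM, were the following. Csf1 was closest to Pamr1, Elk3 and Tppp3 (r = 0.908, 0.906 and 0.889), and Il34 to Slc7a8, Sox13 and Ctnnbip1 (r = 0.929, 0.919 and 0.905). Csf1r was closest to Wipf1, Myo5a and Rab8b (r = 0.973 each). Wipf1 and Myo5a encode an actin regulator and a myosin motor.

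Csf2ra was closest to Pi4k2a, a lipid kinase gene, to Hexa, which encodes a lysosomal hexosaminidase subunit, and to the macrophage lipid receptor gene Trem2 (r = 0.969, 0.967 and 0.961). Csf2rb was closest to Trpv2, Cmtm3 and the complement gene C1qc (r = 0.966, 0.962 and 0.961). Csf2rb2 was closest to the myeloid genes Nrros, Sirpa and Laptm5 (r = 0.991, 0.975 and 0.975), and Csf3r to Slc29a1, Eno2 and Pot1b (r = 0.924, 0.91 and 0.909). Without NC replicate 6 and SZ-A replicate 5, these r were 0.86, 0.744 and 0.723 for Csf3r, and 0.807 or more for the 3 neighbours of each other member.

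Spi1 itself was measured at a mean of 4.03 ± 1.99 FPKM (SD, n = 6) in NC, 91.8 ± 27.9 FPKM (n = 7) in HFD and 39.6 ± 26.7 FPKM (n = 7) in SZ-A. It rose by 4.28 ± 0.31 in HFD against NC (limma, adjusted p = 2.7e-07) and fell by 1.36 ± 0.33 in SZ-A against HFD (limma, adjusted p = 0.0097). Among 15 of 16 listed transcription factors of the receptor genes that were tested, 7 rose and 0 fell on HFD, and 0 rose and 5 fell with SZ-A (Zeb2, Runx1, Spi1, Irf8 and Fos). Over all genes tested, 21.0% rose on HFD and 13.3% fell with SZ-A. Zeb2, needed for macrophage identity, fell by 0.79 and Runx1, a regulator of the Csf1r gene, fell by 0.80 on the log2 scale (limma, adjusted p = 0.00043 and 0.0059). Klf4 showed a difference of -0.05 (limma, adjusted p = 0.88).

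Signalling genes act downstream of CSF1R. Of 26 tested (27 listed), 22 rose and 0 fell on HFD with a median log2 fold change of 1.49, and 0 rose and 20 fell with SZ-A with a median of -0.88. In SZ-A against NC 12 were higher and 0 lower. Over all genes tested, the shares were 21.0% higher in HFD, 13.3% lower in SZ-A than in HFD, and 4.15% higher in SZ-A than in NC. Pik3cg and Pik3cd, the listed genes for catalytic PI3-kinase subunits, rose by 2.17 and 2.25 on HFD (limma, adjusted p = 4.8e-07 and 3.4e-06). With SZ-A they fell by 1.09 and 1.14, and the adaptor gene Gab2 fell by 0.69, each without overlap of SZ-A and HFD (limma, adjusted p = 0.0003, 0.00098 and 0.0012). Pik3r1, which encodes a regulatory PI3-kinase subunit, showed a difference of -0.13 (limma, adjusted p = 0.73).

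The beta common and G-CSF receptors signal through JAK kinases and STAT factors. Of 16 such genes tested, 6 rose and 1 fell on HFD, and 0 rose and 2 fell with SZ-A, beside 21.0% of all genes that rose on HFD and 13.3% that fell with SZ-A. Those 2 were the adaptor Shc1, which fell by 0.45, and the kinase Jak1, which fell by 0.54 on the log2 scale (limma, adjusted p = 0.017 and 0.028). Stat3 showed a difference of -0.23 and the phosphatase gene Ptpn11 of 0.03 (limma, adjusted p = 0.063 and 0.94).

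ADAM17 and ADAM10 are proteases that release cell surface proteins, CSF1R and membrane-bound CSF1 among the known targets of ADAM17. Of the 4 shedding genes, 1 rose on HFD (beside 21.0% of all genes), which was Adam17 at 1.58 ± 0.14 (limma, adjusted p = 1.6e-06), and 2 fell with SZ-A (beside 13.3%), Adam17 by 0.97 and Adam10 by 0.45 (limma, adjusted p = 0.00043 and 0.043). Rhbdf2, whose product carries ADAM17 to the surface, and Timp3, an inhibitor, showed differences of -0.20 and -0.00 (limma, adjusted p = 0.44 and 1).

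Of 9 survival and proliferation genes, 4 rose on HFD and 3 fell with SZ-A, beside 21.0% and 13.3% of all genes. Top2a (a topoisomerase of dividing cells) and Mki67 rose by 1.97 and 2.15 on HFD (limma, adjusted p = 3.2e-07 and 7.4e-07), and with SZ-A they fell by 1.23 and 1.16 (limma, adjusted p = 0.00074 and 0.0043). Ccnd1, a cyclin gene induced by growth factors, fell by 0.82 with SZ-A (limma, adjusted p = 0.038), although its HFD against NC difference was 0.10 (adjusted p = 0.78). Ccnd2 showed a difference of 0.30 in SZ-A against HFD (limma, adjusted p = 0.4).

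Among other ligands and receptor chains of this cytokine class, 6 of 12 were tested, of which 3 rose on HFD and 1 fell with SZ-A, beside 21.0% and 13.3% of all genes. Il3ra, the interleukin 3 alpha chain that pairs with the beta chains above, rose from 4.79 ± 1.91 FPKM (SD, n = 6) in NC to 20.3 ± 3.49 FPKM (n = 7) in HFD, by 1.93 on the log2 scale (limma, adjusted p = 5.5e-06). In SZ-A it was at 17.7 ± 13.8 FPKM (n = 7), a difference of -0.43 from HFD (limma, adjusted p = 0.32). Flt3, the receptor of dendritic cell precursors, fell by 0.22 with SZ-A from a mean of only 0.460 FPKM (limma, adjusted p = 0.043). Kitl and Kit showed differences of -0.36 and -0.43 (limma, adjusted p = 0.078 and 0.14).

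Mast cells and eosinophils respond to interleukin 3 and interleukin 5. Of 8 markers of these cells, 4 were in the table (the mast cell genes Mcpt4, Cma1, Cpa3 and Kit, with no gene specific to eosinophils). They summed to 3.53 to 21.4 FPKM in NC, 35.1 to 512 FPKM in HFD and 9.75 to 45.2 FPKM in SZ-A. The first 3 rose on HFD, by 3.77, 3.54 and 3.49 (limma, adjusted p = 0.00031, 0.00085 and 0.0005). With SZ-A they fell by 2.46, 2.55 and 2.64 on the log2 scale (limma, adjusted p = 0.0078, 0.0065 and 0.0046). The part of these cells in the levels of Csf2rb, Csf2rb2 and Il3ra was not tested.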

How the data were processed

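Total RNA of eWAT was extracted, and its poly(A) mRNA was sequenced as 150-base paired-end reads. According to the methods the authors aligned reads to GRCm38 with HISAT2 and tested differences with DESeq2, and the submitters' processing notes name featureCounts 1.5.0-p3. The authors deposited 1 table of FPKM values per gene and mouse, in which each of the 14776 genes was above 0 in all 20 mice, so no gene at 0 in any mouse was tested. FPKM are not counts, so the main tests used no count model. Reads recovered from the FPKM steps and exon lengths (GENCODE M21, 14770 genes matched) came out whole, within 0.01, for 95.93% to 96.29% of values under 1000 reads. They served for depth and for 1 alternative, a limma fit to the recovered reads. Reads carry no molecular identifiers, so read numbers cover counting error only.

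Groups came from the labels, and the design text counts the samples as mice. No table columns were identical. Genes whose mean reached 0.1 FPKM were tested on the log2(FPKM + 1) scale with limma 3.58.1 in R 4.3.3 (trend), 2 groups per fit, with Benjamini-Hochberg adjustment over 14706, 14695 and 14718 genes (HFD against NC, SZ-A against HFD, SZ-A against NC). Within-mouse levels were compared by exact permutation tests in Python 3.11.15 with NumPy 2.4.6. In simulated data for SZ-A against HFD (14693 and 14694 genes), limma recovered 200 of 200 changed genes at log2 folds of 1 and of 2, with 8 and 10 false calls. The median estimates were 0.829 and 1.683. Every gene was given the same spread, the median SD of the HFD mice, and changed genes had means of at least 1 FPKM. No outlying mouse was simulated, so this recovery does not give the power for the real SZ-A mice. The members and gene lists were chosen with earlier results of these data known. Named genes were all members, the 3 genes most correlated with each, and from each pathway list the 3 with the smallest p and the 1 with the largest p in SZ-A against HFD. Irf8 and Fos were named to complete a count. Alternatives covered the pseudocount, filter, scaling, samples, weights, replicate block, epithelial covariate, marker list and recovered reads.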

Additional observations from a re-analysis of the deposited data

Results flagged for a closer look

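In each group of 6 or 7 mice, the highest and lowest values were compared with the rest by Dixon's test, which by chance singles out about 1 in 20 groups. Of 39 groups tested, 7 held a mouse far from the others. For Il34 these were NC replicate 6, at 34.8 FPKM, and HFD replicate 6, at 12.6 FPKM. For Csf3r they were NC replicate 3, at 1.71 FPKM, and SZ-A replicate 5, at 8.41 FPKM. For Csf1 minus Il34 on the log2 scale, NC replicate 6 lay lowest at -3.20. For Csf3r relative to the macrophage markers, NC replicate 6 lay highest of NC at -1.56 and SZ-A replicate 5 highest of SZ-A at -2.64. Of the 7, NC replicate 6 accounts for 3 and SZ-A replicate 5 for 2.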

How the results depend on the processing

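The number of members past the threshold stayed at 6 in HFD against NC, between 3 and 6 in SZ-A against HFD and at 4 in SZ-A against NC when 1 mouse was left out at a time, and relative levels past it ranged from 5 to 9 around 8. The number of members was 6 in SZ-A against HFD without SZ-A replicate 5, beside 4296 of 14690 genes called in either direction. Relative levels fell to 5 without SZ-A replicate 1, 3, 4 or 7, where fewer mice also raise the smallest possible p. Without NC replicate 6 and SZ-A replicate 5 together, chosen as the shallowest mice after seeing the data, 4 members passed in SZ-A against NC. Of all genes 926 of 14712 passed there. The epithelial covariate left 2 members in HFD against NC and 0 in SZ-A against NC, beside 4126 of 14706 and 267 of 14718 genes. Array weights gave 7 in SZ-A against HFD, beside 6403 of 14695 genes, with Il34 called higher. The study's fold threshold left 0 there, and lipid-associated markers gave 15 relative levels. Of same-numbered mice, 1 of 6, 3 of 7 and 2 of 6 pairs had r over 0.1, with r from -0.415 to 0.593 in SZ-A against NC. Differently numbered mice were not compared, so whether the numbers pair the mice is not known here. With the replicate block, 6, 4 and 0 members passed by limma in the 3 comparisons. The 4 lost in SZ-A against NC had adjusted p of 0.059 to 0.084 (limma). In exact paired sign flips 0 relative levels passed (smallest adjusted p = 0.11). With 6 or 7 pairs, the smallest p that sign flips allow passes the adjustment only if many relative levels reach it together. These sign flips thus cannot decide whether the relative levels depend on the replicate block.

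Some directions turned, none of them of a called value except Csf2rb in HFD against NC, at -0.45 with the epithelial covariate. Il34 turned in HFD against NC with weights (0.13), the covariate (0.71) and without NC replicate 6 (0.19, the other end of a leave-one-out range from -0.28), in SZ-A against HFD with the covariate (-0.0047), and in SZ-A against NC with median-ratio (-0.0099) or quantile scaling (-0.025) and on leaving out any of 6 mice (range over all mice -0.13 to 0.34, and 0.47 without both shallow mice). Relative to macrophage markers in HFD against NC, Csf2ra turned with pseudocounts of 0.1 (-0.21) and 0.01 (-0.27) and on leaving out any of 4 mice (range over all mice -0.075 to 0.38), and with lipid-associated markers Csf1r, Csf2ra and Csf2rb2 were at -0.80, -1.08 and -1.07. In SZ-A against NC those markers gave -0.84, -0.80 and -0.81, a pseudocount of 0.01 gave -0.0063 for Csf1r and -0.017 for Csf2ra, and the marker median gave 0.26 for Csf2rb. The cause of these changes was not tested.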
